A study of Mus musculus with 48 samples.

Results

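The genes followed were Pnpla3 and 9 genes of fat synthesis or its control (Fasn, Acaca, Acly, Scd1, Elovl6, Srebf1, Me1, Thrsp and Insig1): 10 of the 25229 gene symbols in the count table. They were chosen by name, with their time-of-day pattern by genotype and tissue and their relation to the fat content of nodose libraries already in view, so those 2 patterns are given as descriptions. Where members past a threshold are counted for them, the count only stands beside that for all genes and nothing is read from it. The other contrast, HepDKO against Control, was tested over all genes. All 10 genes passed the filter on low counts in both tissues, with 16102 arcuate and 14867 nodose genes tested in all.

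De novo lipogenesis turns surplus carbohydrate into fatty acids. Citrate exported from mitochondria is cleaved to acetyl-CoA, carboxylated to malonyl-CoA and built into palmitate with NADPH as reductant, after which the chain is elongated, desaturated and stored as triglyceride. In liver and adipose tissue insulin and feeding raise these genes, largely through SREBP-1c and ChREBP, and in the liver of mice they follow the nightly meal. Pnpla3 encodes a lipid-droplet protein of the patatin-like phospholipase family, which is itself a SREBP-1c target and is expressed in mouse adipose tissue and liver.

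The libraries came from male C57Bl/6J mice homozygous for floxed Rev-erba and Rev-erbb, the genes Nr1d1 and Nr1d2, which encode nuclear receptors that repress clock and metabolic genes. At 6 to 10 weeks of age they received AAV8-TBG-EGFP (Control) or AAV8-TBG-Cre (HepDKO) by tail vein, and tissue was taken 2 to 4 weeks later, at 10 to 12 weeks of age, with chow always available, at 27 C and in 12 h of light and 12 h of dark. Both groups carried the floxed alleles. TBG is a hepatocyte promoter, so recombination was directed at the liver and the sequenced cells were meant to keep both receptors. The arcuate nucleus of the hypothalamus, which senses energy state and drives feeding, was sampled as micropunches pooled from 3 to 4 mice, and the left nodose ganglion, which holds vagal sensory neurons, as ganglia pooled from 4 mice. Collection was at ZT4, ZT10, ZT16 and ZT22 (ZT, zeitgeber time, counts hours from lights on), with 3 pooled libraries in each of 16 groups and 48 in all. Library preparation differed between the tissues and cannot be told apart from tissue.

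Arcuate libraries held 15483922 to 20399718 counts and nodose libraries 1813994 to 10422914. The smallest count of any member was 199 in arcuate (Pnpla3) and 16 in nodose (Pnpla3, in the shallowest library, Control ZT4 replicate 1). Against the label male, 1 library of each tissue held Xist RNA: arcuate HepDKO ZT10 replicate 3 had 1914 counts against at most 10 in the other 23, and nodose HepDKO ZT10 replicate 2 had 1694 against at most 13. The summed level of 8 neuron markers was 1232 to 1663 CPM (counts per 1000000, with TMM scaling within each tissue) in arcuate but 4.64 to 31.4 in nodose, where 2 of the 8 passed the filter. Nodose libraries instead held 10848 to 29711 CPM of 6 Schwann cell markers, 4395 to 82584 CPM of 6 skeletal muscle markers, 3142 to 5429 CPM of 3 fibroblast markers, 278 to 2202 CPM of 8 adipocyte markers and 57.2 to 493 CPM of 5 hepatocyte markers (3.05 to 5.54 in arcuate). The adipocyte markers summed to 5.22 to 63.6 CPM in arcuate, where 1 of the 8 passed the filter. In such bulk libraries, fewer cells of a type and less RNA per cell cannot be told apart.

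Promoter sequence was matched in RefSeq for 9 of the 10 genes, all but Scd1, as the 250 bases before each annotated start (GRCm38.p6). Those of 4 genes are shown because they mark the ends of the range of patterns below: Pnpla3, Fasn and Thrsp, with the widest time-of-day ranges in nodose, and Insig1, with the widest in arcuate. The Pnpla3 window is chr15:84167566-84167815 (+ strand), Fasn chr11:120824548-120824797 (- strand), Thrsp chr7:97417551-97417800 (- strand) and Insig1 chr5:28071162-28071411 (+ strand). Each reads 5′ to 3′ along the gene and ends just before its start. Capitals mark CCAAT or its reverse complement and, in Insig1, the E-box CACGTG.
Pnpla3: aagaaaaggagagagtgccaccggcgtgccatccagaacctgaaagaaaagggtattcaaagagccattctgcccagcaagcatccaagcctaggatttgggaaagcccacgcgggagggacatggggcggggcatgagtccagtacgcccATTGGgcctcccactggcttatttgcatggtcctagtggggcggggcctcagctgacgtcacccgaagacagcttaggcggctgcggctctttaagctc
Fasn: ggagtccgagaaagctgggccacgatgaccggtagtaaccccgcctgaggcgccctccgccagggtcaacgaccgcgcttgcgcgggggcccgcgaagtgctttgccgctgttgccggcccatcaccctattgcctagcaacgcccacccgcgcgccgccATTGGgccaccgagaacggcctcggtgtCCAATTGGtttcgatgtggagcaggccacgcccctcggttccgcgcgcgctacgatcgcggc
Thrsp: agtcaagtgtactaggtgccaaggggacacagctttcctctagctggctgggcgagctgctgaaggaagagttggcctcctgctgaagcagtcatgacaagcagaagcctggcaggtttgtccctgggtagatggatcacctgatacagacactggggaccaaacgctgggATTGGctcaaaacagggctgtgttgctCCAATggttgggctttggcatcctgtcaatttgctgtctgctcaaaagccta
Insig1: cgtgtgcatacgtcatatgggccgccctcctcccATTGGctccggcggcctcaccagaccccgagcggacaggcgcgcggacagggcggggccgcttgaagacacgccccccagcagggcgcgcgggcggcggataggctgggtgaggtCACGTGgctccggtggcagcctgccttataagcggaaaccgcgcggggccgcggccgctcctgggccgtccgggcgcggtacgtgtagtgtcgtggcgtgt
Srebf1 has 3 promoters here and Me1 2, so a count of genes is not like a share of promoters. The CCAAT letters, which NF-Y proteins can bind, were searched on either strand. At least 1 promoter of 6 of the 9 genes held them (Pnpla3, Fasn, Srebf1, Me1, Thrsp and Insig1). Of all 32851 promoters of that length, 33.8% held the CCAAT letters. In Pnpla3 they lay 99 bases before the start on the opposite strand, and Fasn had 3 copies, 90, 62 and 59 bases before the start, 2 of which share bases. The E-box CACGTG, which clock and lipogenic bHLH factors can bind, was found in Insig1 alone, 101 bases before the start, and in 6.02% of all promoters. The REV-ERB half-site letters TAGGTCA were in no member's window and in 2.23% of all promoters, while TGGGTCA was in 1 Me1 promoter and in 3.24% of all. None of the 9 genes held the liver X receptor direct repeat (0.0152% of all promoters), the SREBP letters TCACNCCAC (1.05%) or the E4BP4 and DBP letters TTANGTAA (2.06%), on either strand. A match is a description of the letters in the window, not a binding site.

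In the nodose libraries 6 of the genes had higher medians, by 1.36 times or more, in the dark than in the light, led by Pnpla3 and followed by Fasn, Acly, Thrsp, Acaca and Me1. Over both genotypes Scd1 and Srebf1 also had their highest mean at ZT16, with wider overlap. Within genotypes, Control Scd1 was highest at ZT10 (1062 CPM against 1007 at ZT16) and HepDKO Srebf1 at ZT22 (86.9 against 83.5). The medians of Elovl6 and Insig1 were no higher in the dark. In the arcuate libraries the other 8 genes had smaller time-of-day ranges than in nodose, while Insig1 and Elovl6 had wider ones, with time points whose libraries did not overlap. The difference between tissues was not tested. Between genotypes, no member passed the test in either tissue.

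Nodose Pnpla3 at ZT4 was 7.85, 11.3 and 17.7 CPM in the 3 Control libraries and 19.99, 10.9 and 10.2 in the 3 HepDKO libraries. ZT10 gave 17.0, 16.2 and 14.2 (Control) and 12.2, 12.8 and 20.9 (HepDKO). ZT16 gave 57.2, 30.4 and 76.3 (Control) and 74.8, 36.2 and 78.6 (HepDKO). Every ZT16 library thus lay above every ZT4 and ZT10 library, in both genotypes. At ZT22 Control had 28.1, 15.7 and 34.5 CPM of Pnpla3 and HepDKO 46.6, 34.1 and 77.3. Of the 12 dark-phase libraries, 11 lay above the highest light-phase library (20.9 CPM). The exception was Control ZT22 replicate 2. Median Pnpla3 was 41.4 CPM in the dark and 13.5 in the light, 3.07 times as high, and the mean at ZT16 was 4.54 times that at ZT4.

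Fasn encodes fatty acid synthase, which assembles palmitate. In nodose it was 328, 352 and 538 CPM at ZT4 and 532, 428 and 374 at ZT10 in Control, and 550, 334 and 380 at ZT4 and 393, 341 and 721 at ZT10 in HepDKO. ZT16 gave 948, 452 and 1984 (Control) and 1686, 430 and 1692 (HepDKO). Replicate 2 of each genotype at ZT16 was thus within the range of the light phase, while the other 4 ZT16 libraries were above it. At ZT22 Control had 1000, 419 and 505 CPM of Fasn and HepDKO 1021, 760 and 1948. All 3 HepDKO libraries but 1 of the 3 Control libraries were above the highest light-phase value, 721 CPM, and the genotypes overlapped.

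Acly, ATP citrate lyase, supplies cytosolic acetyl-CoA, and Acaca, acetyl-CoA carboxylase 1, makes malonyl-CoA from it. Nodose Acly stayed between 123 and 179 CPM in the 12 light-phase libraries. Control had 289, 165 and 686 CPM at ZT16 and 247, 178 and 141 at ZT22. HepDKO had 619, 155 and 542 at ZT16 and 347, 250 and 403 at ZT22. Of the 12 dark-phase libraries, 8 exceeded every light-phase library, and replicate 2 at ZT16 was again low in both genotypes. Acaca ran from 224 to 403 CPM in the light and from 252 to 769 in the dark. Its mean rose from 252 CPM at ZT4 over both genotypes to 502 at ZT16, and 6 dark-phase libraries lay above the light-phase range.

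Me1, malic enzyme, is a source of NADPH for fatty acid synthesis. It was 85.4 to 137 CPM in the light and 93.0 to 218 in the dark, with 7 of 12 dark-phase libraries above the highest light-phase library. Thrsp encodes Spot 14, a small protein that supports lipogenic flux. Nodose Thrsp had the widest spread among members, from 9.33 CPM (19 counts, Control ZT4 replicate 1) to 277 CPM (HepDKO ZT16 replicate 1), a range of 29.7-fold. Its means ± SD at ZT4, ZT10, ZT16 and ZT22 were 40.2 ± 36.4, 93.5 ± 29.2, 161 ± 86.4 and 49.4 ± 28.5 CPM (Control) and 38.1 ± 22.9, 74.4 ± 27.3, 209 ± 100.05 and 104 ± 54.4 (HepDKO, n = 3 each). Thrsp was thus already higher at ZT10 than at ZT4 in mean, whereas Pnpla3 was still low at ZT10.

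Scd1, which makes monounsaturated fatty acids, shares sequence with Scd2, Scd3 and Scd4, and how reads common to them were counted is not given in the sources used here. Nodose Scd1 was 538 to 1895 CPM in the light and 572 to 2383 in the dark, and a single dark-phase library exceeded the light-phase range. Elovl6 lengthens palmitate to stearate. It ran from 101 to 182 CPM in the light and from 82.4 to 236 in the dark, with 5 dark-phase libraries above the light-phase range and 1 below it, and the 2 medians were 149 and 148. Srebf1, the gene of the lipogenic transcription factor SREBP-1, was 51.5 to 81.8 CPM in the light and 51.2 to 121 in the dark. For Srebf1, 5 dark-phase libraries lay above the light-phase range and 1 below it. Insig1 retains SREBP precursors in the endoplasmic reticulum and is itself a target of SREBP. It was 101 to 170 CPM in the light and 79.1 to 170 in the dark. No dark-phase Insig1 library lay above the light-phase range, and 3 of 12 lay below it.

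**Figure D1:**
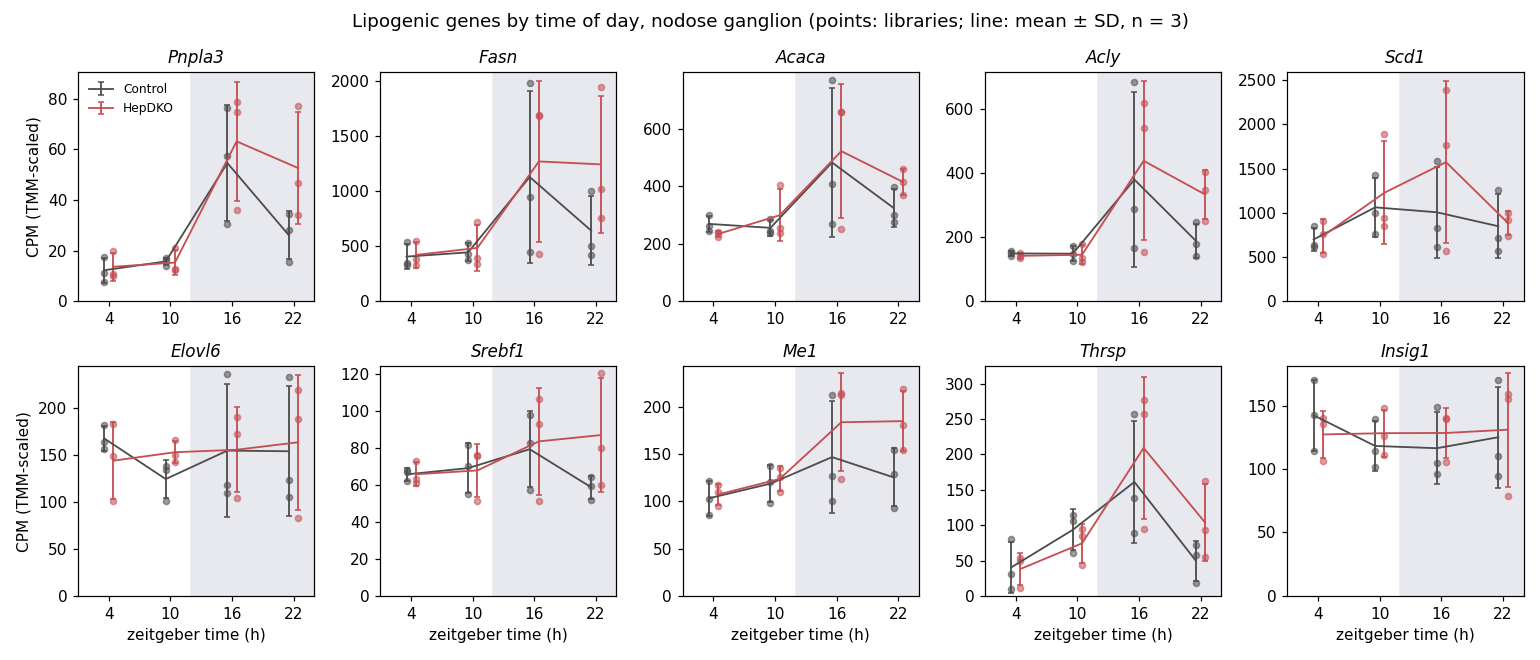
Level of each gene in the 24 nodose libraries (CPM with TMM scaling, y axis, from 0) against zeitgeber time in h (x axis; shaded from 12 h, the dark phase), with points for libraries, lines for group means and bars for SD, n = 3. Pnpla3 at ZT16 lies between 30.4 and 78.6 CPM, above all ZT4 and ZT10 libraries, while Insig1 overlaps at all times.

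To put all genes on a common scale, the 24-h component was taken from the 4 group means on the log2 scale; its amplitude runs from mean to peak. In nodose, averaged over genotypes, the amplitude was 1.23 (SE 0.148) for Pnpla3 with a peak at ZT18.0, 1.10 (SE 0.243) for Thrsp at ZT15.6 and 0.90 (SE 0.189) for Fasn at ZT18.1. Acly had 0.84 (SE 0.154) at ZT17.8, Acaca 0.54 (SE 0.114) at ZT17.5 and Me1 0.36 (SE 0.0874) at ZT17.8. Pnpla3, Fasn, Acly, Acaca and Me1 thus peaked within ZT17.5 to ZT18.1, and Thrsp and Scd1 (0.45, SE 0.158, ZT14.3) earlier. Srebf1 (0.16), Elovl6 (0.10) and Insig1 (0.07) were lowest. The median over the 10 genes was 0.49 and that over all 14867 nodose genes 0.12. Samples 6 h apart limit how finely a peak time can be read.

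The same component passed in edgeR (quasi-likelihood, Benjamini-Hochberg adjusted) for 4 of the 10 genes in nodose (Pnpla3, Fasn, Acaca and Acly), beside 1.33% of all genes tested, and nothing is read from that count because the pattern chose the genes. It was also unstable: with 1 library left out it ran from 1 (without HepDKO ZT16 replicate 1) to 5 (without Control ZT16 replicate 2), and Fasn and Acaca each fell out in 20 of 24 fits and Acly in 1. Without the Xist-positive nodose library the amplitude was 1.23 for Pnpla3, 0.88 for Fasn, 0.83 for Acly and 0.54 for Acaca. Within genotypes, 0 members passed in Control (beside 0.242% of all genes), and 1, Pnpla3, in HepDKO (beside 0.121%). Under DESeq2 those counts were 1 and 2, and nothing is read from them either.

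**Figure D2:**
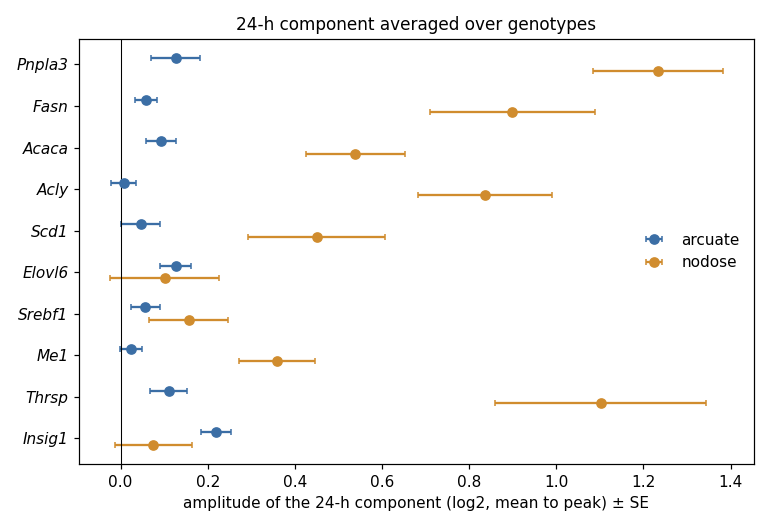
Amplitude of the 24-h component in log2 units from mean to peak (x axis) for each gene (y axis), averaged over genotypes, with bars for SE, in arcuate and nodose, 24 libraries each. Pnpla3 (1.23) and Thrsp (1.10) stand at the upper end in nodose, while the arcuate values lie between 0.01 and 0.22.

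Amplitude was larger in HepDKO than in Control for 8 of the 10 genes in nodose: Pnpla3 had 1.41 against 1.09, Fasn 1.05 against 0.78, Acly 1.01 against 0.69 and Me1 0.48 against 0.25. The Control values leaned on 1 library: without Control ZT16 replicate 3 they were 0.95 for Pnpla3, 0.47 for Fasn, 0.35 for Acly and 0.08 for Me1. With all libraries, peaks were later in HepDKO for these 4 genes, at ZT18.6 against ZT17.3 for Pnpla3 and ZT18.7 against ZT17.3 for Fasn. The vector difference of the 24-h component between genotypes was 0.15 to 0.74 log2 in nodose. It passed for 0 of the 10 genes by edgeR's quasi-likelihood test, 0 of them had an unadjusted p under 0.05, and DESeq2 called 0, beside 0% of all nodose genes (421 had an unadjusted p under 0.05). The pattern by genotype also entered the choice of the genes, so nothing is read from that count.

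In nodose the HepDKO means were higher than the Control means for 10 of the 10 genes at ZT16 and at ZT22. At ZT10 they were higher for 6 of 10 and at ZT4 for 5 of 10. The genes are not independent. With group means removed, Fasn had r = 0.87 with Pnpla3, 0.90 with Acly and 0.93 with Me1, though 0.07 with Elovl6 and -0.02 with Insig1. The share of all genes with a higher HepDKO mean is not given, so nothing is read from these counts. Pnpla3 at ZT22 averaged 52.6 ± 22.2 CPM in HepDKO and 26.1 ± 9.54 in Control, and Fasn 1243 ± 624 and 641 ± 313 (SD, n = 3). For Acly at ZT22 the 3 HepDKO libraries (250 to 403 CPM) all lay above the 3 Control libraries (141 to 247), and so did those for Me1, narrowly (154.6 to 218 against 93.0 to 154.2). Elovl6 at ZT10 was also higher in all HepDKO libraries, and Acaca at ZT4 lower in all. The genotypes thus did not overlap in 4 of the 40 sets of gene and time, beside 9.68% of such sets over all nodose genes.

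Averaged over time, HepDKO over Control in nodose gave a log2 fold change above 0 for each of the 10 genes, between 0.04 and 0.33. The median over all 14867 nodose genes was 0.009. Since the genes vary together, nothing is read from the shared sign. Pnpla3 had 0.33 (SE 0.206), Fasn 0.33 (SE 0.262), Me1 0.25 (SE 0.123), Scd1 0.25 (SE 0.222), Thrsp 0.25 (SE 0.331) and Acly 0.23 (SE 0.214). None of these differences passed edgeR's quasi-likelihood test, with a Benjamini-Hochberg adjusted p of 0.9997 for all 10. The lowest unadjusted p was 0.055, for Me1. That test called 0% of nodose genes (497 had an unadjusted p under 0.05), and DESeq2 called 3 genes, none of them a member. Signs of Elovl6 and Insig1 turned when single libraries were left out. Without the Xist-positive library the log2 fold change was 0.35 for Pnpla3 and 0.37 for Fasn. A test for a difference at any of the 4 time points called 0 of the 10 genes (lowest adjusted p 0.977), beside 0% of all genes (349 with an unadjusted p under 0.05), and DESeq2 called 1 gene, no member.

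Adipocyte marker levels differed in median between time points in the same libraries, and overlapped between genotypes. Their median sum in nodose was 816 CPM (ZT4), 1583 (ZT10), 1475 (ZT16) and 1013 (ZT22), and 1116 in Control (278 to 2202) against 1323 in HepDKO (413 to 1830). At ZT10, where the median of the adipocyte markers was highest, the mean of Pnpla3 was 15.6 CPM, against 58.9 at ZT16. What part fat content had in the members' time-of-day pattern was not tested. Skeletal muscle markers had medians of 34893, 45254, 31419 and 31847 CPM at the same times, and Schwann cell markers 18293, 15742, 14902 and 17149. Hepatocyte markers had medians of 191, 411, 198 and 115 CPM, highest at ZT10, and their part in the members' levels was not tested. With the adipocyte score (mean log2 CPM of the 8 markers, none of which is a member) as a covariate, the amplitude was 1.12 for Pnpla3, 0.76 for Fasn, 0.76 for Acly, 0.46 for Acaca and 0.29 for Me1. That of Thrsp fell to 0.65 from 1.10, and that of Scd1 to 0.22 from 0.45. With adipocyte and skeletal muscle scores together the amplitude was 1.09 for Pnpla3, 0.65 for Fasn, 0.56 for Acly and 0.33 for Acaca. What part other cell types had beyond these scores was not tested.

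The relation to fat content divided the genes. Over the 24 nodose libraries Pearson's r with the adipocyte score was 0.89 for Thrsp, 0.63 for Me1, 0.61 for Scd1, 0.52 for Fasn and 0.52 for Pnpla3, then 0.43 for Acaca, 0.34 for Acly and 0.30 for Srebf1. For Elovl6 it was -0.37 and for Insig1 -0.45. These are descriptions over libraries that share a preparation and differ in depth, and they include the time of day. After group means were removed, r was 0.93 for Thrsp, 0.72 for Me1, 0.71 for Pnpla3, 0.58 for Fasn and 0.26 for Acly. Without the 2 libraries farthest from the median score it was 0.82 for Thrsp, 0.42 for Pnpla3 and -0.20 for Insig1.

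Adipocyte signal was lowest in 3 libraries: Control ZT4 replicate 1, Control ZT22 replicate 2 and HepDKO ZT4 replicate 2, with scores of -1.80, -1.70 and -1.62. They were also the 3 lowest for Thrsp, at 9.33, 17.6 and 11.7 CPM. Control ZT22 replicate 2 was the dark-phase library with the lowest Pnpla3, 15.7 CPM, and its score was the lowest of the dark phase. In the fit with group means, the slope per unit of score (a doubling of the markers' geometric mean) was 1.17 (SE 0.123) log2 for Thrsp, 0.53 (SE 0.126) for Pnpla3, 0.53 (SE 0.173) for Fasn and 0.31 (SE 0.0728) for Me1. Slopes were above 0 for 8 of the 10 genes, with Elovl6 (-0.24, SE 0.131) and Insig1 (-0.20, SE 0.0883) below. Thrsp, Pnpla3 and Me1, 3 members, had a higher-side slope past the threshold, beside 0.874% of all genes, and 0 a lower-side slope, beside 0.114%; nothing is read from these counts.

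Elovl6 and Insig1 followed the Schwann cell score instead. Their r with it was 0.81 and 0.83 over 24 libraries, 0.83 and 0.92 after group means were removed, and 0.76 and 0.82 without the 2 libraries of most extreme score. For the other 8 members r lay between -0.34 and 0.27. With the skeletal muscle score r was -0.61 for Elovl6 and -0.58 for Insig1 (Spearman's rho -0.62 and -0.61), and r was -0.46 for Acaca and -0.45 for Acly (-0.54 and -0.59 after group means were removed), while for Pnpla3 (r -0.13, rho 0.0043) and Me1 (r -0.08, rho 0.13) it was near 0. Control ZT16 replicate 3, the highest library for Fasn, Acaca, Acly and Elovl6, had the lowest muscle score (-2.92) and an adipocyte score of 0.79. Without it the amplitude was 1.17 for Pnpla3, 0.76 for Fasn, 0.68 for Acly and 0.43 for Acaca.

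**Figure D3:**
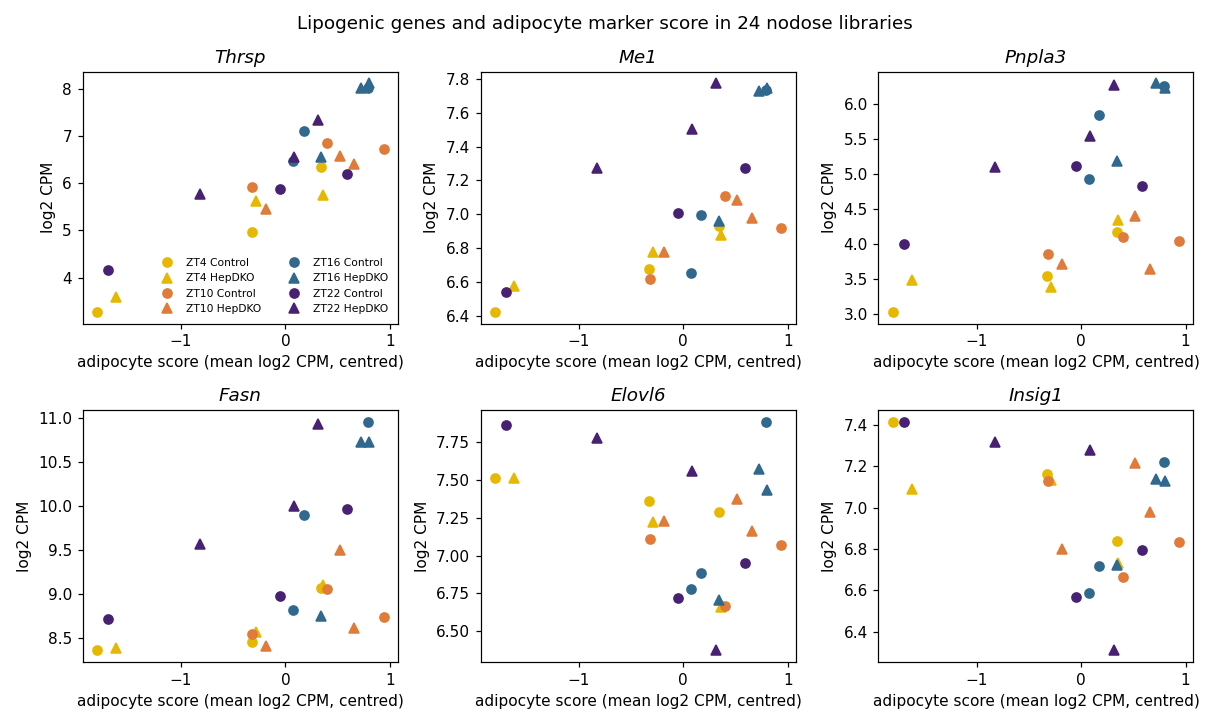
Log2 CPM of 6 genes (y axis) against the adipocyte marker score, the centred mean log2 CPM of 8 adipocyte genes (x axis), in 24 nodose libraries, coloured by zeitgeber time with circles for Control and triangles for HepDKO. Thrsp tracks the score at all times (r = 0.89), Pnpla3 lies higher at ZT16 and ZT22 than at ZT4 and ZT10 for a like score, and Insig1 slopes the other way (r = -0.45).

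Among all 14867 nodose genes, the 5 whose log2 CPM was most like that of Pnpla3 over the 24 libraries were Fasn (r = 0.91), Pygl (0.88), Me1 (0.86), Acly (0.86) and Acss2 (0.84). Acaca was the sixth (0.83) and Thrsp the fourteenth (0.79). For Fasn they were Acly (0.94), Me1 (0.94), Acaca (0.92), Acss2 (0.92) and Pygl (0.92). With group means removed Pnpla3 still had r = 0.87 with Fasn, 0.85 with Me1 and 0.82 with Thrsp, and -0.20 with Elovl6 and -0.32 with Insig1. In arcuate the genes most like Pnpla3 were Pdzd7 (0.82), Fam228a (0.80), Col4a2 (0.80), Col4a1 (0.79) and Col11a1 (0.76). The median r of arcuate Pnpla3 with the other 9 members was -0.14, against 0.79 in nodose. In arcuate Fasn was most like Celsr2 (0.81), Tril (0.79), Prex1 (0.79), Kif1a (0.78) and Pi4ka (0.78).

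In arcuate, Insig1 had the widest time-of-day range among the members. At ZT4 Control had 115, 107 and 112 CPM and HepDKO 119, 109 and 119. ZT16 gave 81.7, 81.6 and 90.5 (Control) and 87.8, 77.4 and 84.9 (HepDKO). All ZT16 libraries lay below all ZT4 libraries. ZT10 (87.8 to 120 CPM) and ZT22 (95.6 to 123) lay between or beside them. The amplitude was 0.22 (SE 0.034) with a peak at ZT3.64, and it was 0.20 in Control and 0.24 in HepDKO. Without the Xist-positive arcuate library it was 0.22. Arcuate Insig1 had r = 0.65 with the oligodendrocyte marker score over 24 libraries.

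Arcuate Pnpla3 lay between 11.7 and 20.5 CPM in all 24 libraries. Its means ± SD at ZT4, ZT10, ZT16 and ZT22 were 14.6 ± 1.84, 14.5 ± 2.06, 12.9 ± 1.36 and 15.04 ± 2.53 CPM (Control) and 16.5 ± 3.53, 13.7 ± 1.05, 14.1 ± 1.74 and 16.2 ± 2.95 (HepDKO, n = 3), and the libraries of all times overlapped. Fasn held between 355 and 480 CPM, with a coefficient of variation of 6.35% over the 24 libraries, against 70.8% in nodose. Elovl6 was 79.8 to 87.4 CPM at ZT10 and 94.1 to 99.3 at ZT16, without overlap, and its amplitude was 0.13 (SE 0.0355). Amplitudes of the other members lay between 0.01 (Acly) and 0.13 (Pnpla3). The median over the 10 genes was 0.08, and over all 16102 arcuate genes 0.07.

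The averaged 24-h component passed for 1 of the 10 genes in arcuate, Insig1, beside 3.86% of all genes, for 0 in Control (beside 0.261%) and for 0 in HepDKO (beside 0.379%). DESeq2 called 2, 0 and 1, and as in nodose nothing is read from these counts. HepDKO ZT4 replicate 3 was the lowest arcuate library for Fasn, Acaca, Acly, Scd1, Elovl6 and Me1 and the highest for Pnpla3. It had the highest oligodendrocyte marker sum (1444 CPM against 622 to 1347 in the others) and the lowest astrocyte sum (777 against 1020 to 1249). The part of this in its values was not tested. Without it the count of members was 4 in place of 1, and the amplitudes were 0.22 for Insig1, 0.08 for Fasn, 0.09 for Acaca and 0.10 for Elovl6.

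**Figure D4:**
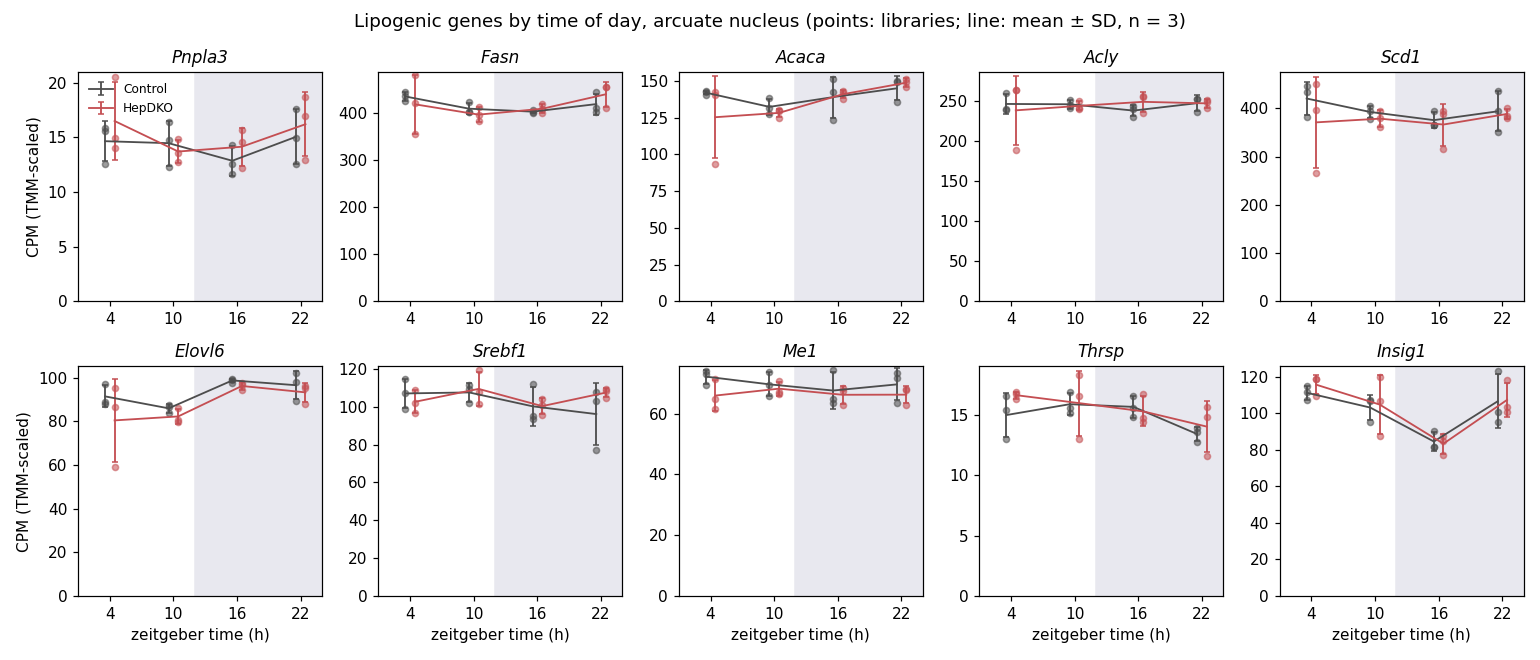
Level of each gene in the 24 arcuate libraries (CPM with TMM scaling, y axis, from 0) against zeitgeber time in h (x axis; shaded from 12 h), drawn as for nodose with points for libraries and lines and bars for mean and SD, n = 3. Insig1 dips at ZT16 (77.4 to 90.5 CPM) below all ZT4 libraries, and 1 HepDKO library at ZT4 is low for Acaca, Acly, Scd1 and Elovl6.

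Between genotypes the arcuate members differed by -0.08 to 0.08 log2, with 5 of the 10 above 0. Pnpla3 had 0.08 (SE 0.0790), Elovl6 -0.08 (SE 0.0502) and Me1 -0.07 (SE 0.0361). None passed edgeR's quasi-likelihood test (adjusted p 0.613 to 0.997, 0 with an unadjusted p under 0.05), beside 0% of all arcuate genes (1387 with an unadjusted p under 0.05), and DESeq2 called 23 genes, no member. The test at any of the 4 time points called 0 of the 10 (lowest adjusted p 0.977), beside 0% of all genes (775 unadjusted), and DESeq2 called 7 genes, no member. The difference of the 24-h component between genotypes called 0 of the 10, beside 0% of all genes (382 unadjusted), and DESeq2 called 1 gene, no member. Genotypes did not overlap in 1 of the 40 sets of gene and time (Elovl6 at ZT16, HepDKO lower), beside 10.5% over all arcuate genes.

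**Figure D5:**
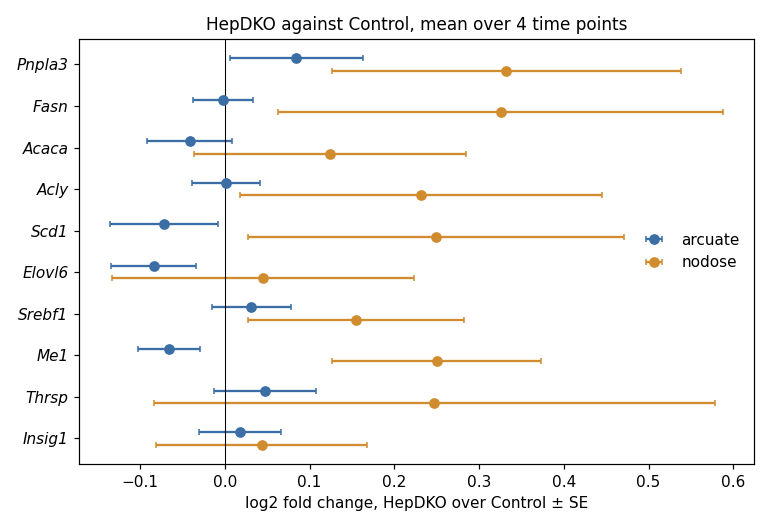
HepDKO over Control as a log2 fold change averaged over 4 time points (x axis) for each gene (y axis), with bars for SE, in arcuate and nodose, 24 libraries each. All 10 nodose values lie above 0, from 0.04 to 0.33, none past the test, and the arcuate values lie between -0.08 and 0.08.

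Genes around the pathway were read from lists written with earlier results known. Of the 12 genes that supply acetyl-CoA, malonyl-CoA and NADPH, 0 passed the averaged 24-h component in nodose by edgeR's quasi-likelihood test, beside 1.33% of all genes, 6 had an unadjusted p under 0.05 (1898 of all 14867 genes did), and their median amplitude was 0.25 against 0.12 over all genes. The nearest was Aacs, acetoacetyl-CoA synthetase (0.44, SE 0.0974, peak ZT16.1, adjusted p 0.0543). Acss2, which makes acetyl-CoA from acetate, had 0.45 at ZT18.1 (adjusted p 0.073). Of 13 elongases and desaturases 1 passed, Scd4 (0.84, SE 0.177, ZT17.5, adjusted p 0.0382), at 0 to 3.43 CPM and as a close relative of Scd1 uncertain. Of 17 genes of transcriptional control 1 passed, Mlx (0.31, SE 0.0665, ZT14.8, adjusted p 0.0417), the partner of ChREBP. Among 9 lipases and lipolysis genes G0s2, the inhibitor of adipose triglyceride lipase, passed (0.91, SE 0.164, ZT15.6, adjusted p 0.0166). With 1 library left out at a time, Mlx no longer passed in 17 of 24 fits (adjusted p up to 0.106), Scd4 in 14 (up to 0.0901) and G0s2 in 1, without Control ZT4 replicate 2 (0.0523).

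G0s2 rose from 14.8 ± 6.85 CPM at ZT4 to 34.9 ± 6.57 at ZT16 in Control and from 9.93 ± 3.52 to 53.3 ± 12.7 in HepDKO (SD, n = 3). With the adipocyte score as a covariate Scd4, G0s2 and Mlx no longer passed, at adjusted p 0.0864, 0.0994 and 0.0645 and amplitudes of 0.77, 0.73 and 0.36, while with the muscle score added Mlx passed (adjusted p 0.0432, amplitude 0.34) and Scd4 and G0s2 did not (adjusted p 0.0572 and 0.084, amplitudes 0.82 and 0.76). The median amplitude of 14 fatty acid oxidation genes was 0.31, and 10 of them had an unadjusted p under 0.05, beside 1898 of all 14867 genes. Among them Ehhadh, an enzyme of peroxisomal oxidation, had 0.35 (SE 0.0813) with a peak at ZT10.3, which did not pass (adjusted p 0.0655). None of 15 glycerolipid genes passed (6 unadjusted, nearest Agpat2 at 0.64, ZT14.7, adjusted p 0.0737), nor any of 11 cholesterol genes (0 unadjusted, nearest Stard4 at 0.17, adjusted p 0.527) or 11 insulin response genes (2 unadjusted, nearest Pik3r1 at 0.18, adjusted p 0.212). DESeq2 called Aacs and Agpat2 but not Stard4 or Pik3r1; its outcome for Acss2 and Ehhadh is not reported here.

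In arcuate the cholesterol genes, which share SREBP control with Insig1, had the most calls of the 8 pathway lists: 5 of 11 passed, beside 3.86% of all genes, with 8 at an unadjusted p under 0.05 (3479 of all 16102 genes), and a median amplitude of 0.10 against 0.07 over all genes. Dhcr7, the last enzyme of cholesterol synthesis, had 0.15 (SE 0.0256, ZT3.60, adjusted p 0.00401) and Hmgcs1 0.10 (SE 0.0221, ZT3.57, adjusted p 0.022). Fdft1 and Lss also passed, with peaks at ZT2.05 and ZT3.91, near that of Insig1. Aacs (0.15, ZT0.836), Elovl7 (0.29, ZT3.31), Lpin2 (0.09, ZT16.7), Pnpla7 (0.22, ZT14.6) and Rxra (0.11, ZT15.6) were the single calls of their lists, of 12, 12, 15, 9 and 17 genes. Lpin2, Pnpla7 and Rxra no longer passed without the filter on low counts (adjusted p 0.060, 0.0521 and 0.0521). With 1 library left out at a time they lost the call in 15, 20 and 20 of 24 fits (adjusted p up to 0.118, 0.117 and 0.129), and Hmgcs1 in 4 (up to 0.0685), while Aacs, Elovl7 and Dhcr7 passed in all 24. In fatty acid oxidation 0 of 14 passed (2 unadjusted, nearest Ucp3, adjusted p 0.104) and in insulin response 0 of 10 (2 unadjusted, nearest Fbxo32, adjusted p 0.136). DESeq2 called neither Ucp3 nor Fbxo32.

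The adipocyte score gave slopes past the threshold in nodose for genes of most of these lists. Lipe, hormone-sensitive lipase (0.84, adjusted p 1.59e-07), Pnpla2, adipose triglyceride lipase (0.50, adjusted p 9.47e-05), Cebpa (0.80, adjusted p 1.2e-06) and Pparg (1.04, adjusted p 1.79e-05), both regulators of adipocyte differentiation, are adipocyte genes themselves. Pcx, pyruvate carboxylase (0.50, adjusted p 5.46e-06), Acsl1 (0.56, adjusted p 6.38e-05), Pck1 (1.38, adjusted p 6.4e-05), Dgat2 (0.77, adjusted p 0.0212), Dgat1 (0.40, adjusted p 0.0236), Gpd1 (0.48, adjusted p 0.0387) and Mlxipl, the gene of ChREBP (0.59, adjusted p 0.0255), also rose with it. Acacb (0.48, adjusted p 0.0467) and Ehhadh (0.31, adjusted p 0.04) passed near the threshold. Fads2, a desaturase, fell (-0.30, adjusted p 0.0249). With 1 library left out at a time the call was lost in 14 of 24 fits for Acacb, 13 for Ehhadh, 7 for Mlxipl, 6 for Fads2, 4 for Dgat1 and 3 for Dgat2. Of 11 cholesterol genes 0 passed by edgeR's quasi-likelihood test (9 had an unadjusted p under 0.05, beside 1720 of all 14867 genes), and all 11 slopes were below 0, as for Insig1.

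Over genotypes 0 genes of these 8 lists passed the overall test in either tissue by edgeR's quasi-likelihood test. Among the genes of lowest p in their own lists, with some lists not named, were in nodose Acss2 (0.31), Insig2 (0.16), Pnpla6 (0.09), Mogat2 (1.03, at 0 to 4.23 CPM), Irs2 (-0.20) and Tecr (-0.11), all with adjusted p 0.9997. In arcuate they included Aacs (0.07), Tecr (0.10), Acsl5 (0.06), Ppara (-0.19), Foxo1 (-0.15), Pnpla8 (-0.08) and Mbtps2 (-0.13), with adjusted p between 0.444 and 0.639. Of the lists' genes, 7 in nodose (3 of them in fatty acid oxidation) and 7 in arcuate had an unadjusted p under 0.05, beside 497 of all 14867 nodose and 1387 of all 16102 arcuate genes.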

How the data were processed

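The authors deposited raw read counts per gene symbol, whole numbers in 1 table for 48 libraries. Per the submitters' processing notes the tools were FastQC 0.11.7, Trim Galore 0.6.10 and STAR 2.7.10b with the mm10 build. The counting tool, its strand setting and the annotation are not given in the sources used here. Nodose counts come from ribosome-depleted and arcuate counts from separately prepared RNA, so levels were scaled and tested within each tissue only.

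Fits were made per tissue in R 4.3.3 with limma 3.58.1 and edgeR 4.0.16: filterByExpr on the 8 groups, TMM factors, and a robust quasi-likelihood fit of the group means, written as genotype, 24-h and 12-h terms. P-values were adjusted over all genes by Benjamini-Hochberg, with a threshold of 0.05. Log2 CPM used a prior count of 2, and marker scores are mean log2 CPM of a list, centred. The slope fit added the adipocyte score to the group means. Members and lists were chosen with earlier results of these data known. Named beside the 10 members are, per list and test, up to 3 genes past the threshold with the lowest p, or else the gene with the lowest p; further names (Acss2 and Ehhadh in the 24-h component, Fdft1, Lss, Gpd1) were chosen after their values were seen, and some genes that the rule names are not reported here. The 5 genes most like Pnpla3 and Fasn were ranked by Pearson's r over 24 libraries.

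Replicates were pools of separate samples per the labels; no pair of a group was identical, with a chi-square per degree of freedom of at least 2.89 in arcuate and 8.12 in nodose. The fit was tested on simulated counts: 91% of 2-fold overall changes among 15960 arcuate genes were recovered and 88% among 14622 nodose genes, and for 2-fold rhythms 91% and 74%. For 1.5-fold changes the figures were 91% and 61% for the genotype change and 69% and 17% for rhythms. Each figure rests on 100 changed genes. Rhythm folds are peak over trough: the median estimated amplitude was 0.50 in both tissues for 2-fold, and 0.30 and 0.29 for 1.5-fold. False calls were 17 of 199 in arcuate and 13 of 162 in nodose for the genotype change, and 11 of 171 and 4 of 95 for rhythms. Alternatives were RLE factors, DESeq2 1.42.0, a replicate block, no low-count filter, marker scores as covariates, another adipocyte score and leaving out each library in turn.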

Additional observations from a re-analysis of the deposited data

How the results depend on the processing

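Each group had 3 pooled libraries, 4 time points 6 h apart fix no waveform, and nodose depth left few counts for Pnpla3 and Thrsp in 1 library. Over all genes, DESeq2 called more than edgeR: in arcuate 23 genes for the overall genotype effect, 7 at any time point, 1117 for the averaged 24-h component (edgeR 622), 108 in Control (42), 380 in HepDKO (61) and 1 for the difference of rhythm; in nodose 3, 1, 383 (198), 135 (36) and 73 (18), and 239 for the slope on adipocyte score (147). The adipocyte score as covariate left 102 nodose genes for the averaged component and 21 in Control, and both scores gave 43 in HepDKO. Left-out libraries moved these counts: arcuate averaged 287 to 1031, Control 11 to 117, HepDKO 31 to 312, overall 0 to 7; nodose averaged 129 to 276, Control 15 to 71, overall 0 to 1, slope 90 to 267.

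Small genotype effects changed sign. Arcuate Acly was -0.00058 with RLE factors and -0.00058 with DESeq2. Over left-out libraries arcuate Acaca ran from -0.0678 to 0.00137, Acly from -0.0183 to 0.0368, Fasn from -0.0277 to 0.0237, Insig1 from -0.0109 to 0.0475 and Srebf1 from -0.00229 to 0.0547, and nodose Elovl6 from -0.0206 to 0.154 and Insig1 from -0.00665 to 0.105. Excluding leave-outs, member values kept direction and side of the threshold in 620 cases, with 17 passing newly, 10 no longer passing and 3 turned.

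Whether replicate numbers pair the libraries was not settled. Deviations of same-numbered libraries had a mean r of 0.0247 in arcuate and 0.001 in nodose. For libraries of different numbers it was -0.0124 in arcuate and -0.000376 in nodose. In arcuate 16 of 24 libraries correlated best with their own number, and in nodose 11 of 24. The share expected by chance was not computed, so these values are a hint from the data only. With a replicate block the averaged component had 677 calls in arcuate and 190 in nodose, and the Srebf1 slope was -0.0268.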

Other observations

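Clock genes give the time scale in the same libraries. In nodose 10 of 10 passed the averaged 24-h component by edgeR (quasi-likelihood, Benjamini-Hochberg adjusted), beside 1.33% of all genes. Nr1d1 had an amplitude of 1.74 (SE 0.103) with a peak at ZT6.72, Dbp 1.94 (SE 0.173) at ZT9.00, Cry1 0.65 (SE 0.0728) at ZT17.8 and Arntl 1.79 (SE 0.114) at ZT22.7. The ZT17.5 to ZT18.1 peaks of Pnpla3, Fasn, Acly, Acaca and Me1 stood beside that of Cry1, a clock repressor. They were about opposite to that of Nr1d1. These times are read from samples 6 h apart, and whether the clock has a part in the members' pattern was not tested. In arcuate 8 of 10 passed, beside 3.86% of all genes, with Nr1d1 at 0.41 (SE 0.0307) and ZT6.96 and Arntl at 0.24 (SE 0.0331) and ZT22.8. The clock genes' median amplitude was 0.23 there and 1.34 in nodose. No clock gene passed the overall genotype test in either tissue (1 of 10 in each had an unadjusted p under 0.05).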
